A study of Mus musculus with 36 samples.

Results

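The genes described here encode receptors of the epidermal growth factor (EGF) family, their ligands and an inhibitor, measured as mRNA in cultured mouse keratinocytes. There are 3 receptors (Egfr, Erbb2 and Erbb3), 6 ligands (Epgn, Areg, Tgfa, Hbegf, Ereg and Btc) and 1 inhibitor (Errfi1). They were chosen by gene symbol and make up 10 of the 55358 genes of the count table, and all 10 passed the filter on low counts. The study asked how plakophilin 4 (PKP4), an armadillo-repeat protein of cell-cell junctions, acts in keratinocytes. WT cells were compared with PKP4-KO cells and with Rescue cells. The Pkp4 allele of PKP4-KO cells lacks exon 9 and derives from tm1b, with its lacZ reporter removed. Rescue cells are PKP4-KO cells carrying lentiviral human PKP4 fused to EGFP and selected with puromycin. Culture lasted 24 h or 72 h, in low calcium medium (LCM, 50 µM CaCl2) or in high calcium medium (HCM, LCM plus a further 1.2 mM CaCl2), which made 12 groups of 3 libraries. In the library titles the 24 h cultures carry the letters LD and the 72 h cultures HD. All cells came from the epidermis of newborn pups on the C57BL/6J background, and the pups that gave WT cells were not those that gave PKP4-KO cells, so that genotype and pup cannot be told apart. The WT and PKP4-KO cells sequenced carried no lentivirus. PKP4 re-expression and transduction with selection therefore cannot be told apart in Rescue against WT or in Rescue against PKP4-KO. Both media contained 10 ng/ml EGF, so that the receptor had a ligand in every group.

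EGFR, ERBB2 and ERBB3 are receptor tyrosine kinases that act as pairs. EGFR binds all of the ligands described here, ERBB2 has no known ligand of its own and serves as a preferred partner, and ERBB3 binds neuregulins and has little kinase activity of its own. The ligands are made as membrane proteins and are released by metalloproteases, after which the receptor signals through Ras and ERK, which in turn raise the transcription of several of the ligands. Errfi1 (MIG6) is induced by this signal and binds the active EGFR kinase to shut it off. In skin, the family is known for keratinocyte growth, migration and hair follicle and sebaceous gland biology.

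Among the ligands, Epgn (epigen), Ereg (epiregulin), Areg (amphiregulin) and Btc (betacellulin) are neighbours on chromosome 5. In GRCm39, the build of the count table, Epgn lies at 91175323 to 91183074, Ereg at 91222157 to 91241505 and Areg at 91287451 to 91296291 on the forward strand, and Btc at 91505120 to 91550883 on the reverse strand. The 4 genes together span 375.6 kb. Upstream sequences are shown for the 3 of them that have an entry in RefSeq's promoter table of GRCm38.p6, because Areg and Epgn, whose group means spanned 47.4-fold and 15.2-fold, varied widely and Btc was the scarcest. Each is the 250 bases before the start of the gene, 5′ to 3′ on the strand of the gene, with capitals marking TATAAA or the cAMP response element TGACGTCA.
Epgn, chr5:91027267-91027516, forward strand: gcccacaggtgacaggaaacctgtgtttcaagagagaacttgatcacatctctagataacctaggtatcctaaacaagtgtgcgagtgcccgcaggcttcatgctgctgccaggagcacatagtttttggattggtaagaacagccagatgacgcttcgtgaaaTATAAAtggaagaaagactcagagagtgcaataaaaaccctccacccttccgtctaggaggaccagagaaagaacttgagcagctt
Areg, chr5:91139349-91139598, forward strand: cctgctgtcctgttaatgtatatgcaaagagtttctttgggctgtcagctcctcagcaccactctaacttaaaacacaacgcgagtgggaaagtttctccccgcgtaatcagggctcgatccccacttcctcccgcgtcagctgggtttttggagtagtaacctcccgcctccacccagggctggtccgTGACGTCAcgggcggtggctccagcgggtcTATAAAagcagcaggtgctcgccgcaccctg
Btc, chr5:91402995-91403244, reverse strand: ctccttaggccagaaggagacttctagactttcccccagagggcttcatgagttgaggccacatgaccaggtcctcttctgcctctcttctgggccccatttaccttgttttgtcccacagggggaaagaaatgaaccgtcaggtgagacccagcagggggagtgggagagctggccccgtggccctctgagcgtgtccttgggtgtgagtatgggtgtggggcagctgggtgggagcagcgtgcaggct
The motifs searched on both strands were TGACGTCA, the AP-1 motif TGANTCA, the TEAD motif GGAATG and TATAAA. The Areg window held TGACGTCA 61 bases and TATAAA 31 bases before the start, both on the forward strand. The Epgn window held TATAAA 86 bases before the start, and the Btc window held none of the 4. Of all 32851 windows of this length in the table, 1.55% held TGACGTCA, 6.75% TGANTCA, 12.64% GGAATG and 12.37% TATAAA. These matches describe letters only.

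Library totals lay between 13602728 and 22467187 counts, with a median of 17353519.5. Pkp4, measured over the whole gene, had a CPM (counts relative to a library size scaled with TMM factors) of 33.4 to 76.3 in WT, 6.40 to 14.1 in PKP4-KO and 6.52 to 11.9 in Rescue, and the added EGFP-PKP4 sequence had 1902 to 15325 counts in Rescue against at most 113 elsewhere. The 3 PKP4-KO libraries at 72 h HCM stood apart: their TMM factors were 0.481 to 0.546 (0.705 to 1.392 elsewhere) and their 50 most abundant genes took 37.57% to 38.79% of the counts (22.22% to 33.7% elsewhere). In 6 of the 36 libraries, the most similar library belonged to another group: PKP4-KO 24 h HCM 3 and PKP4-KO 24 h LCM 1, Rescue 24 h LCM 3 and Rescue 72 h LCM 2, PKP4-KO 72 h LCM 2, and WT 72 h HCM 3. All 6 basal keratinocyte markers were detected in every group (summed level 23120 to 70120 CPM), and the summed level of 6 suprabasal markers was 192.3 to 258.4 CPM in WT at 24 h LCM and reached 10240 to 11370 in the PKP4-KO libraries of 72 h HCM. Markers of fibroblasts, melanocytes and endothelium summed to at most 11.42 CPM, and 6 markers of simple epithelium to 112.1 to 412.3 CPM in Rescue, 9.368 to 56.37 in WT and 9.728 to 20.18 in PKP4-KO, with Krt7 the largest of them at up to 366.9. In bulk RNA, fewer cells of a type and less RNA per cell cannot be told apart. The labels do not say that libraries of a group came from separate cultures, so that p-values measure only the spread between these libraries.

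**Figure D1:**
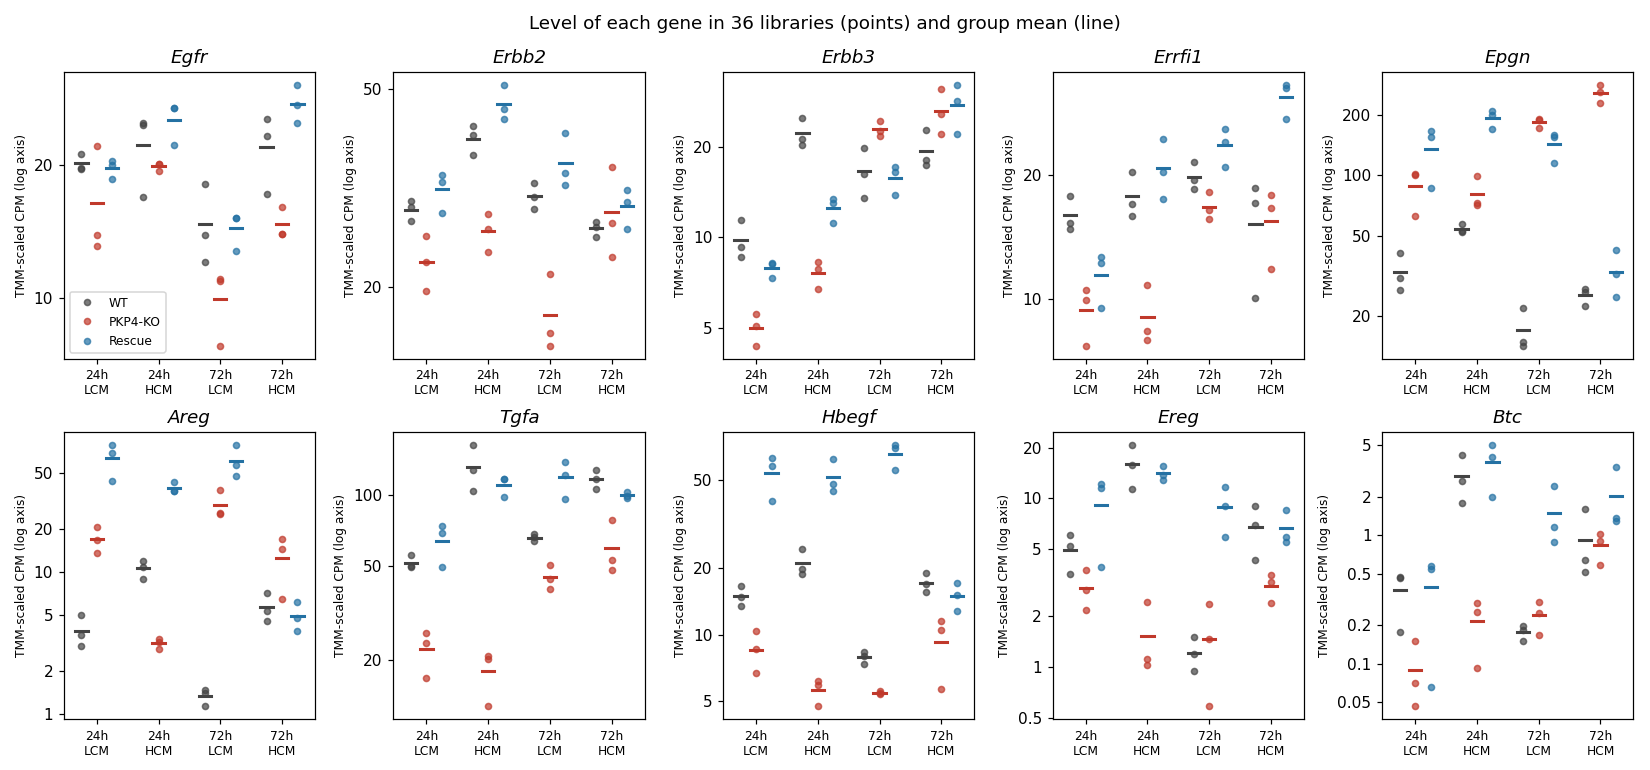
Level of each of the 10 genes (TMM-scaled CPM, log axis) by culture time and medium, with 1 point per library, a line at the mean of 3 libraries, and WT in grey, PKP4-KO in red and Rescue in blue. Epgn in PKP4-KO lies above WT in all 4 conditions, Tgfa in PKP4-KO lies below WT in all 4, and the lowest Btc points are single counts.

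Per length, in TPM computed from the counts and the gene lengths of the table, Epgn had the highest mean share of the ligands in every group except WT at 72 h in both media, where Tgfa did, and Btc had the lowest mean share in every group. In WT, Epgn took 53.6% of the summed ligand TPM in LCM and 44.5% in HCM at 24 h, and 41.04% in LCM and 33.3% in HCM at 72 h, and Tgfa took 23.8%, 29.6%, 45.3% and 43.04%. In PKP4-KO, the Epgn share was 70.8%, 86.5%, 75.6% and 86.5%, and the Tgfa share was 4.97%, 5.33%, 5.18% and 5.63%. The lowest Tgfa share of a WT library (20.7%) was above the highest of a PKP4-KO library (6.97%). Rescue had its own mixture in LCM, where Areg took 32.4% to 36.1% at 24 h and 26.9% to 34.6% at 72 h, and at 72 h HCM the Tgfa share was 30.04% to 41.02%, against 40.2% to 44.5% in WT. In the other conditions every Rescue library had a lower Tgfa share than every WT library. The range was 6.1% to 7.6% at 24 h LCM, 9.94% to 10.12% at 24 h HCM and 10.16% to 12.3% at 72 h LCM. These shares compare the genes within a library and do not depend on the scaling between libraries.

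**Figure D2:**
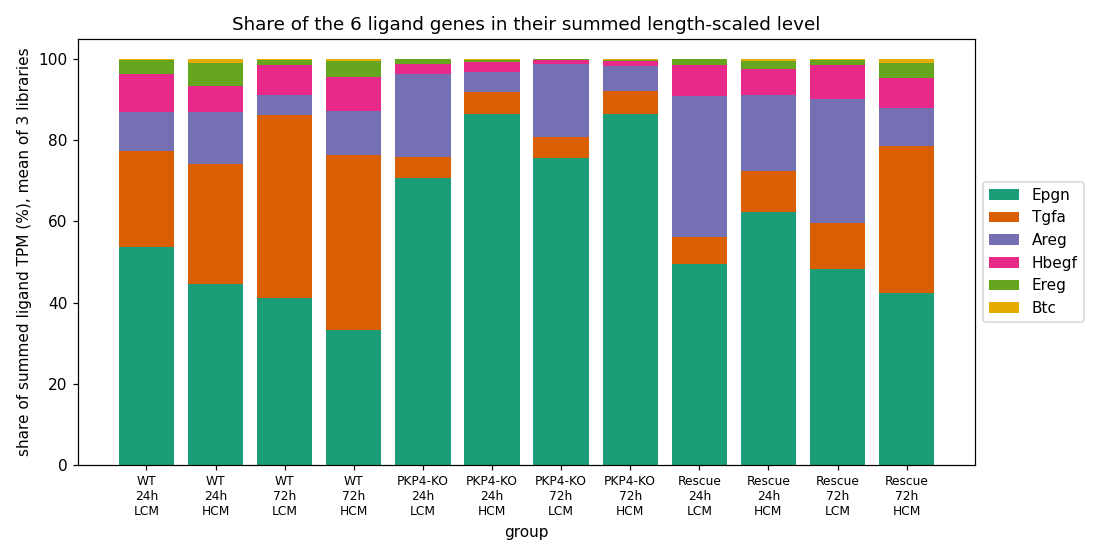
Share of each of the 6 ligand genes in their summed TPM, in percent, as stacked means of 3 libraries for the 12 groups. Epgn fills most of the bars of PKP4-KO, with means of 70.8% to 86.5%, and Tgfa is large in WT and in Rescue at 72 h HCM.

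Against WT, PKP4-KO changed 9 of the 10 genes in HCM at 24 h and 7 in HCM at 72 h, 8 in LCM at 24 h and 7 in LCM at 72 h, at an adjusted p below 0.05. Of all 15114 genes tested, 42.8%, 51.8%, 40.2% and 45.1% were called in these comparisons. At 24 h HCM, 1 gene was higher and 8 were lower, where 20.7% of all genes were higher and 22.2% lower, and at 24 h LCM 2 were higher and 6 lower (19.7% and 20.6% of all genes). At 72 h, 3 were higher and 4 lower both in HCM (21.9% and 29.9%) and in LCM (21.3% and 23.8%). Without TMM factors, where the medians of all genes were -0.83 and -0.35, the 72 h split was 1 higher (Epgn) and 6 lower in HCM, and 2 higher (Areg and Epgn) and 4 lower in LCM. The median log2 fold change of the 10 genes was -1.64 at 24 h HCM and -0.75 at 24 h LCM, and -0.07 and 0.04 at 72 h HCM and LCM, beside medians of all genes of -0.0016 and 0.0033 at 24 h and -0.07 and 0.02 at 72 h. The 4 comparisons have no library in common, but they share their cell lines.

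**Figure D3:**
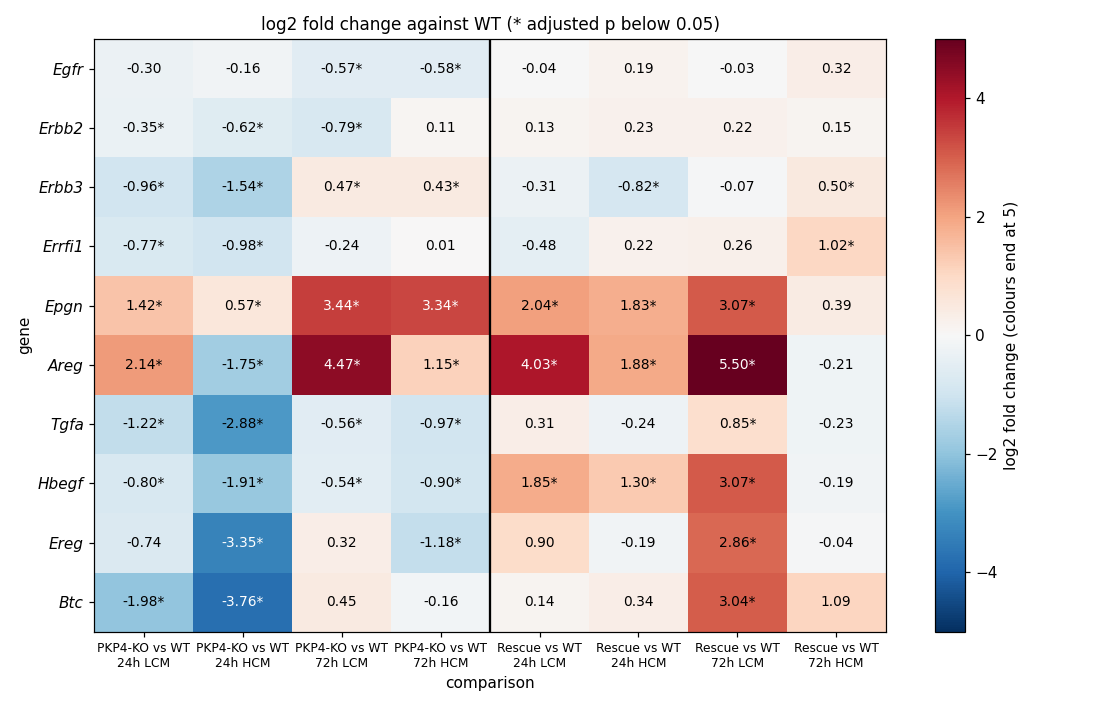
Log2 fold change of PKP4-KO (left) and Rescue (right) against WT for the 10 genes in the 4 culture conditions, with colours from blue (lower) to red (higher) and an asterisk at an adjusted p below 0.05. Epgn and Tgfa carry an asterisk in all 4 PKP4-KO columns, Epgn with positive and Tgfa with negative values, and Areg has both signs. The Btc value of PKP4-KO at 24 h LCM rests on 1 to 3 counts per PKP4-KO library.

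Egfr and Erbb2 had the narrowest ranges of the 10 genes over the groups. Egfr, the receptor of all 6 ligands, had 23.3, 25.5 and 17.2 CPM in WT and 13.97, 13.96 and 16.1 in PKP4-KO at 72 h HCM (log2 fold change -0.58 ± 0.19 (SE), adjusted p = 0.0114). At 72 h LCM it had 12.1, 18.1 and 13.9 in WT and 7.80, 11.1 and 10.9 in PKP4-KO (log2 fold change -0.57 ± 0.19 (SE), adjusted p = 0.0154). All PKP4-KO libraries were below the WT libraries in both media at 72 h. The HCM call was lost without WT library 2 (-0.47) and the LCM call without PKP4-KO library 1 (-0.42) or WT library 2 (-0.39). At 24 h the genotypes overlapped, with log2 fold changes of -0.16 ± 0.18 in HCM and -0.30 ± 0.18 in LCM (adjusted p = 0.531 and 0.202). Over the 12 groups, mean Egfr levels spanned only 2.77-fold, and of the 11 pairs of neighbouring groups in that order only the lowest group, PKP4-KO at 72 h LCM, did not overlap with the next.

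Erbb2, the partner receptor without a ligand, was lower in PKP4-KO at 24 h HCM, with 40.3, 36.8 and 42.1 CPM in WT and 28.01, 26.2 and 23.6 in PKP4-KO (log2 fold change -0.62 ± 0.14 (SE), adjusted p = 0.000572). It was also lower at 72 h LCM, with 28.7, 32.4 and 30.4 in WT and 15.2, 16.2 and 21.2 in PKP4-KO (log2 fold change -0.79 ± 0.14 (SE), adjusted p = 3.65e-05). The groups did not overlap in either case. At 24 h LCM the difference was -0.35 ± 0.14 (adjusted p = 0.0454), which was not called without the 6 libraries named above (-0.29, adjusted p = 0.136), nor when PKP4-KO library 1 (-0.26), PKP4-KO library 2 (-0.35) or any WT library (-0.32 to -0.39) was left out. At 72 h HCM Erbb2 had 26.4, 27.1 and 25.2 in WT and 34.8, 22.97 and 26.9 in PKP4-KO, which overlapped (log2 fold change 0.11 ± 0.14 (SE), adjusted p = 0.541). Without TMM factors, where the median of all genes lay at -0.83 in this comparison, the value was -0.66 (adjusted p = 0.0127).

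Erbb3, the neuregulin receptor, changed direction with time. At 24 h HCM it had 24.98, 20.2 and 21.2 CPM in WT and 7.83, 8.28 and 6.72 in PKP4-KO (log2 fold change -1.54 ± 0.17 (SE), adjusted p = 1.11e-08), and at 24 h LCM 9.25, 8.63 and 11.4 and 5.08, 4.37 and 5.57 (log2 fold change -0.96 ± 0.17 (SE), adjusted p = 3.96e-05). Every PKP4-KO library was below every WT library at 24 h. At 72 h the PKP4-KO values were the higher ones, with 13.5, 19.8 and 16.3 in WT and 22.6, 21.6 and 24.3 in PKP4-KO in LCM (log2 fold change 0.47 ± 0.16 (SE), adjusted p = 0.0199) and 17.4, 22.7 and 18.05 and 25.7, 30.96 and 22.03 in HCM (log2 fold change 0.43 ± 0.16 (SE), adjusted p = 0.028). The LCM call was lost without PKP4-KO library 3 (0.41), WT library 1 (0.35) or WT library 3 (0.45), and without TMM factors the LCM value was 0.07. In HCM the libraries overlapped, the call was lost without PKP4-KO library 1 (0.44) or 2 (0.29) or WT library 1 (0.35) or 3 (0.38), it was also lost without the 6 libraries (0.40, adjusted p = 0.0738), and without TMM factors the value was -0.36 beside the median of -0.83.

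Errfi1, the feedback inhibitor, was lower in PKP4-KO at 24 h in both media, with 20.3, 15.95 and 17.02 in WT against 7.92, 10.8 and 8.35 in PKP4-KO in HCM (log2 fold change -0.98 ± 0.19 (SE), adjusted p = 0.000128), and 15.3, 17.8 and 14.8 against 7.68, 10.5 and 9.93 in LCM (log2 fold change -0.77 ± 0.19 (SE), adjusted p = 0.00205). At 72 h its log2 fold change was 0.01 ± 0.19 in HCM, which was -0.81 without TMM factors (adjusted p = 0.0131), and -0.24 ± 0.19 in LCM (adjusted p = 0.981 and 0.3).

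Epgn was higher in PKP4-KO in all 4 conditions, and most at 72 h. It had 27.3, 26.2 and 22.4 CPM in WT and 260.4, 282 and 229 in PKP4-KO at 72 h HCM (log2 fold change 3.34 ± 0.25 (SE), adjusted p = 8.78e-12), and 14.2, 14.8 and 21.8 and 191, 173 and 188 at 72 h LCM (log2 fold change 3.44 ± 0.25 (SE), adjusted p = 5.03e-12). The PKP4-KO and WT libraries were far apart in both media. Without TMM factors the 72 h HCM value was 2.55 and was still called. At 24 h LCM Epgn had 40.98, 26.9 and 30.9 in WT and 62.96, 101 and 101 in PKP4-KO (log2 fold change 1.42 ± 0.23 (SE), adjusted p = 1.32e-05). The 24 h HCM difference was small, 57.3, 53.1 and 52.4 against 72.6, 98.8 and 71.1 (log2 fold change 0.57 ± 0.23 (SE), adjusted p = 0.0417), and the call was lost when PKP4-KO library 2 (0.40) or any WT library (0.55 to 0.61) was left out. It was also lost with the replicate block (0.57, adjusted p = 0.0519), without TMM factors (0.64, adjusted p = 0.0961) and without a filter on low counts (0.59, adjusted p = 0.0539).

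Areg, a low-affinity ligand made in large amounts by activated keratinocytes, differed in direction between the media at 24 h. At 24 h HCM it had 10.9, 8.98 and 11.98 CPM in WT and 3.36, 3.22 and 2.88 in PKP4-KO (log2 fold change -1.75 ± 0.29 (SE), adjusted p = 1.15e-05). At 24 h LCM it had 3.01, 3.62 and 4.95 in WT and 13.5, 20.7 and 16.9 in PKP4-KO (log2 fold change 2.14 ± 0.28 (SE), adjusted p = 6.21e-07). The groups were separate in both media, with PKP4-KO below WT in HCM and above it in LCM. At 72 h LCM the difference was the largest of the 40 values of PKP4-KO against WT, with 1.40, 1.47 and 1.14 in WT and 37.8, 26.00 and 25.6 in PKP4-KO (log2 fold change 4.47 ± 0.32 (SE), adjusted p = 3.62e-12). At 72 h HCM Areg had 7.09, 5.28 and 4.51 and 17.02, 14.4 and 6.47 (log2 fold change 1.15 ± 0.29 (SE), adjusted p = 0.00143), the third PKP4-KO library lying within the WT range, and without TMM factors the value was 0.35 and was not called. The summed level of suprabasal markers was higher in PKP4-KO at 72 h in both media, 10240 to 11370 CPM against 2498 to 4165 in WT in HCM and 1435 to 2615 against 424.3 to 618.7 in LCM. At 24 h HCM the suprabasal sum was lower in PKP4-KO, 360 to 500.8 CPM against 549.2 to 944.4. The simple epithelium sum was lower in PKP4-KO at 24 h (12.04 to 20.18 CPM over both media, 30.46 to 56.37 in WT). It was also lower at 72 h HCM (9.781 to 13.85, 36.26 to 43.58 in WT). The sum of 5 immune markers was lower in PKP4-KO at 24 h. It was 6.777 to 10.86 CPM in HCM (23.44 to 38.8 in WT) and 8.534 to 11.98 in LCM (21.04 to 31.85 in WT). At 72 h the immune sums of PKP4-KO and WT overlapped in both media. The part of these markers in the differences between PKP4-KO and WT was not tested.

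Tgfa, the ligand known for autocrine growth of keratinocytes, was lower in PKP4-KO in every condition. At 24 h HCM it had 164, 104 and 128 CPM in WT and 20.1, 20.7 and 12.7 in PKP4-KO (log2 fold change -2.88 ± 0.21 (SE), adjusted p = 5.4e-12), and at 24 h LCM 49.9, 49.6 and 55.6 and 16.8, 25.9 and 23.7 (log2 fold change -1.22 ± 0.20 (SE), adjusted p = 1.74e-05). At 72 h the difference was smaller, with 117, 129 and 106 and 78.5, 48.3 and 53.03 in HCM (log2 fold change -0.97 ± 0.20 (SE), adjusted p = 0.000219) and 63.6, 66.2 and 68.4 and 39.9, 50.7 and 44.05 in LCM (log2 fold change -0.56 ± 0.20 (SE), adjusted p = 0.0238). No PKP4-KO library reached the lowest WT library of its condition. The call at 72 h LCM was lost without PKP4-KO library 1 or 3 or WT library 2 or 3 (-0.49 to -0.56).

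Hbegf, a heparin-binding ligand tied to epidermal migration, was also lower in PKP4-KO in every condition. Its levels at 24 h HCM were 19.8, 18.8 and 24.5 CPM in WT and 4.75, 6.19 and 5.91 in PKP4-KO (log2 fold change -1.91 ± 0.21 (SE), adjusted p = 1.4e-08). The other log2 fold changes were -0.80 ± 0.20 at 24 h LCM, -0.90 ± 0.21 at 72 h HCM and -0.54 ± 0.21 at 72 h LCM (adjusted p = 0.00232, 0.000763 and 0.0379). The groups did not overlap in any condition. The call at 72 h LCM was lost when any PKP4-KO library, WT library 2 or WT library 3 was left out (-0.50 to -0.55).

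Ereg, a ligand of the inflamed and wounded epidermis, had 20.7, 11.4 and 15.9 CPM in WT and 1.12, 2.43 and 1.03 in PKP4-KO at 24 h HCM (log2 fold change -3.35 ± 0.43 (SE), adjusted p = 2.02e-07). It was lower at 72 h HCM as well, 6.97, 9.04 and 4.31 against 3.18, 3.49 and 2.38 (log2 fold change -1.18 ± 0.42 (SE), adjusted p = 0.0208), where the call was lost without PKP4-KO library 3 (-1.04) or WT library 2 (-0.93). In LCM it was not called, with -0.74 ± 0.40 at 24 h and 0.32 ± 0.44 at 72 h (adjusted p = 0.143 and 0.573). Btc, the scarcest ligand, had 82, 25 and 52 counts in WT and 2, 6 and 4 in PKP4-KO at 24 h HCM (log2 fold change -3.76 ± 0.62 (SE), adjusted p = 1.33e-05). At 24 h LCM it had 9, 3 and 9 counts in WT and 1, 3 and 1 in PKP4-KO, and although the fit called it lower (adjusted p = 0.0357), all PKP4-KO libraries were at or under the floor of 3 counts and no fold is given. This call was lost without PKP4-KO library 1 or 3 or WT library 1 or 3. At 72 h Btc had 27, 11 and 5 counts in WT and 8, 4 and 8 in PKP4-KO in HCM, and 3, 5 and 4 and 5, 2 and 5 in LCM, and was not called (adjusted p = 0.844 and 0.618).

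Rescue against WT asks whether the genes returned to the WT level when PKP4 was added back. It differed from WT in 4 of the 10 genes in HCM at 24 h and 2 in HCM at 72 h, and in 3 in LCM at 24 h and 6 in LCM at 72 h, where 23.2%, 36.2%, 24.8% and 32.4% of all genes were called. All but 1 of these differences, Erbb3 at 24 h HCM, were upward. Against PKP4-KO, Rescue differed in 9 genes in HCM at 24 h and 7 in HCM at 72 h, and in 8 in LCM at 24 h and 9 in LCM at 72 h (40.8%, 66.7%, 33.7% and 41.5% of all genes). Rescue was higher in all 9 and all 8 called genes at 24 h, in 5 of 7 at 72 h HCM (8 of 9 without TMM factors, the median of all genes then being 1.37) and in 8 of 9 at 72 h LCM. Both comparisons use the same Rescue libraries, and each is read on its own.

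In Tgfa, Rescue had 118, 117 and 98.7 CPM at 24 h HCM, where WT had 164, 104 and 128 and PKP4-KO 20.1, 20.7 and 12.7. Rescue overlapped with WT and lay wholly above PKP4-KO (against WT, log2 fold change -0.24 ± 0.20 (SE), adjusted p = 0.433). Against PKP4-KO the log2 fold change was 2.64 ± 0.21 (adjusted p = 3.2e-11). Ereg behaved alike at 24 h HCM, with 13.7, 15.6 and 12.9 in Rescue, -0.19 ± 0.38 against WT (adjusted p = 0.788) and 3.17 ± 0.43 against PKP4-KO (adjusted p = 5.37e-07). Erbb2 at 24 h HCM lay above the WT libraries, with 50.9, 43.4 and 45.6 in Rescue, 0.23 ± 0.14 against WT (adjusted p = 0.258) and 0.85 ± 0.14 against PKP4-KO (adjusted p = 1.16e-05). Epgn in Rescue overlapped with WT only at 72 h HCM, and its levels in the other conditions are given below. At 72 h HCM it had 24.9, 32.2 and 42.5 in Rescue, 0.39 ± 0.23 from WT (adjusted p = 0.18) and -2.95 ± 0.24 from PKP4-KO (adjusted p = 5.77e-11). A p above the threshold does not show that Rescue and WT were equal, and the 95% interval of these 4 differences is about 2 SE to either side.

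Hbegf, Areg and Epgn were above the WT level in Rescue, except at 72 h HCM, where they overlapped with WT. PKP4-KO lay below WT for Hbegf, and for Areg at 24 h HCM, but above WT for Epgn and for Areg in LCM. At 72 h LCM, mean Epgn was 16.9 CPM in WT, 143 in Rescue and 184 in PKP4-KO. At 24 h HCM the means were 54.3, 193 and 80.8. At 24 h LCM Epgn had 86.0 to 166.7 CPM in Rescue, 26.9 to 40.98 in WT and 62.96 to 101 in PKP4-KO. Hbegf had 58.2, 63.5 and 40.2 CPM in Rescue at 24 h LCM, above 13.5, 14.8 and 16.6 in WT and 6.70, 10.4 and 8.62 in PKP4-KO (against WT, log2 fold change 1.85 ± 0.20 (SE), adjusted p = 6.43e-08). At 72 h LCM it had 72.3, 55.8 and 70.4 in Rescue and 7.37, 8.002 and 8.32 in WT (log2 fold change 3.07 ± 0.21 (SE), adjusted p = 5.82e-12), and at 24 h HCM 48.4, 62.4 and 44.6 in Rescue (log2 fold change 1.299 ± 0.20 (SE), adjusted p = 1.46e-05). At 72 h HCM it overlapped with WT, with 12.8, 15.1 and 17.1 in Rescue and 18.96, 16.9 and 15.7 in WT (log2 fold change -0.19 ± 0.20 (SE), adjusted p = 0.455). Areg had 56.9, 47.6 and 78.1 in Rescue at 72 h LCM, above PKP4-KO (37.8, 26.00 and 25.6) and WT (1.40, 1.47 and 1.14), with log2 fold change 5.502 ± 0.33 (SE), adjusted p = 2.67e-13 against WT. At 24 h LCM Areg had 68.5, 77.9 and 43.6 in Rescue (log2 fold change 4.03 ± 0.30 (SE), adjusted p = 4.61e-11), and at 72 h HCM 4.77, 3.82 and 6.18, overlapping with WT (log2 fold change -0.21 ± 0.28 (SE), adjusted p = 0.583). For Epgn, Areg and Hbegf, all Rescue libraries were thus above all WT libraries in LCM at both times and in HCM at 24 h. Within Rescue at 24 h LCM, library 3 had the lowest Epgn, Areg, Tgfa, Hbegf and Ereg of the group, for example 3.93 CPM of Ereg beside 11.5 and 12.1, and it is 1 of the 6 libraries that resembled another group. Without it, Ereg in Rescue was also called against WT at 24 h LCM (1.26, 0.90 ± 0.39 with it).

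The remaining Rescue differences from WT were Erbb3 at 24 h HCM (-0.82 ± 0.16, adjusted p = 0.000363) and at 72 h HCM (0.50 ± 0.16, adjusted p = 0.0158), Errfi1 at 72 h HCM (1.02 ± 0.19, adjusted p = 0.000134), and Ereg (2.86 ± 0.43, adjusted p = 4.59e-06), Btc (3.04 ± 0.62, adjusted p = 0.000302) and Tgfa (0.85 ± 0.20, adjusted p = 0.00128) at 72 h LCM. The Erbb3 call at 72 h HCM was lost without Rescue library 2 (0.38), WT library 1 (0.43) or WT library 3 (0.45). The Btc value at 72 h LCM rests on 3 to 5 counts per WT library, near the floor of 3, and 12 to 66 per Rescue library. Errfi1 had 32.6, 33.2 and 27.4 CPM in Rescue and 18.6, 17.1 and 10.05 in WT at 72 h HCM, without overlap. The summed level of 5 immune markers was 62.2 to 178 CPM in Rescue and 21.0 to 60.7 in WT. Nearly all of it was Cd68, Cd207 had no count in any of the 36 libraries and Ptprc had at most 4 counts. Simple epithelium markers also summed higher in Rescue than in WT in every condition. At 24 h the sums were 245.9 to 270.6 against 43.83 to 56.37 CPM in HCM and 164.6 to 175.8 against 30.46 to 38.94 in LCM. At 72 h they were 376.9 to 412.3 against 36.26 to 43.58 in HCM and 112.1 to 140.7 against 9.368 to 11.74 in LCM. In LCM the suprabasal sum was higher in Rescue than in WT as well (331.6 to 507.2 against 192.3 to 258.4 CPM at 24 h, and 1015 to 2328 against 424.3 to 618.7 at 72 h). The basal sum was lower in Rescue than in WT at 72 h, 23120 to 23980 against 45830 to 54640 CPM in HCM and 31900 to 37900 against 48960 to 60330 in LCM. At 24 h the basal sums overlapped in both media. The part of these markers in the Rescue values was not tested.

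The calcium comparison asks how the genes responded when junctions could form. In WT, HCM changed 7 of the 10 genes at 24 h and 6 at 72 h, all upward (14.2% and 21.4% of all genes called). The suprabasal marker sum of WT moved with calcium too, from 192.3 to 258.4 CPM in LCM to 549.2 to 944.4 in HCM at 24 h. At 72 h it was 424.3 to 618.7 in LCM and 2498 to 4165 in HCM, and its part was not tested. In PKP4-KO it changed 2 and 5 (2.83% and 32.6%), and in Rescue 5 and 5 (12% and 24.9%). In PKP4-KO at 72 h, 4 genes were higher and 1 lower, but without TMM factors 0 were higher and 2 lower (Areg and Errfi1). In WT, Tgfa rose from 49.9, 49.6 and 55.6 CPM in LCM to 164, 104 and 128 in HCM at 24 h (log2 fold change 1.35 ± 0.20 (SE), adjusted p = 1.54e-05), and Ereg from 6.03, 3.56 and 5.21 to 20.7, 11.4 and 15.9 (log2 fold change 1.695 ± 0.39 (SE), adjusted p = 0.00289). Erbb3 rose from 9.25, 8.63 and 11.4 to 24.98, 20.2 and 21.2 (log2 fold change 1.18 ± 0.16 (SE), adjusted p = 5.55e-06). These libraries did not overlap. In PKP4-KO at 24 h, the values were -0.31 ± 0.20 for Tgfa and -0.92 ± 0.42 for Ereg, neither called (adjusted p = 0.545 and 0.3), and Erbb3 rose by 0.61 ± 0.17 (adjusted p = 0.0469), a call lost without library 1 or 2 of HCM or any library of LCM (0.51 to 0.69). In WT at 24 h, the calls of Erbb2 (0.43 to 0.48) and Epgn (0.59 to 0.74) were lost when single libraries were left out, namely HCM 1 and 3 and LCM 1 and 2 for Erbb2 and any HCM library and LCM 2 and 3 for Epgn. In PKP4-KO at 72 h, Egfr (0.56 ± 0.19, adjusted p = 0.0247), Erbb2 (0.68 ± 0.14, adjusted p = 0.000456) and Hbegf (0.75 ± 0.22, adjusted p = 0.00839) were higher in HCM, but without TMM factors, where the median of all genes was -0.77, their values were -0.12, -0.016 and 0.05. The Egfr call was also lost without HCM library 3 (0.48) or LCM library 1 (0.41), and that of Hbegf without HCM library 1 (0.55) or 2 (0.65). Btc in WT had 9, 3 and 9 counts in LCM and 82, 25 and 52 in HCM at 24 h (log2 fold change 2.93 ± 0.58 (SE), adjusted p = 0.000646), and in Rescue 12, 14 and 1 and 70, 95 and 40 (log2 fold change 3.13 ± 0.58 (SE), adjusted p = 0.000303).

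Areg responded to calcium in opposite directions in WT and PKP4-KO. In WT it rose in HCM by 1.46 ± 0.28 on the log2 scale at 24 h and 2.08 ± 0.31 at 72 h (adjusted p = 0.000462 and 9.96e-06). In PKP4-KO it was lower in HCM at both times, -2.43 ± 0.29 and -1.24 ± 0.28 (adjusted p = 6.15e-06 and 0.000922). In Rescue it was -0.69 ± 0.26 at 24 h (adjusted p = 0.0883, called at -0.90 without library 3 of LCM) and -3.63 ± 0.29 at 72 h (adjusted p = 4.08e-10). The difference between the calcium responses of PKP4-KO and WT was -3.89 ± 0.40 at 24 h and -3.32 ± 0.41 at 72 h (adjusted p = 1.19e-06 and 5.05e-06). That between Rescue and WT was -2.15 ± 0.39 and -5.71 ± 0.42 (adjusted p = 0.0158 and 3.47e-10), of which the 24 h value was not called without Rescue HCM library 1 or 3, Rescue LCM library 2, WT HCM library 3 or WT LCM library 1 or 2 (-1.97 to -2.12). Areg in LCM was lowest in WT of the 3 genotypes at both times.

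**Figure D4:**
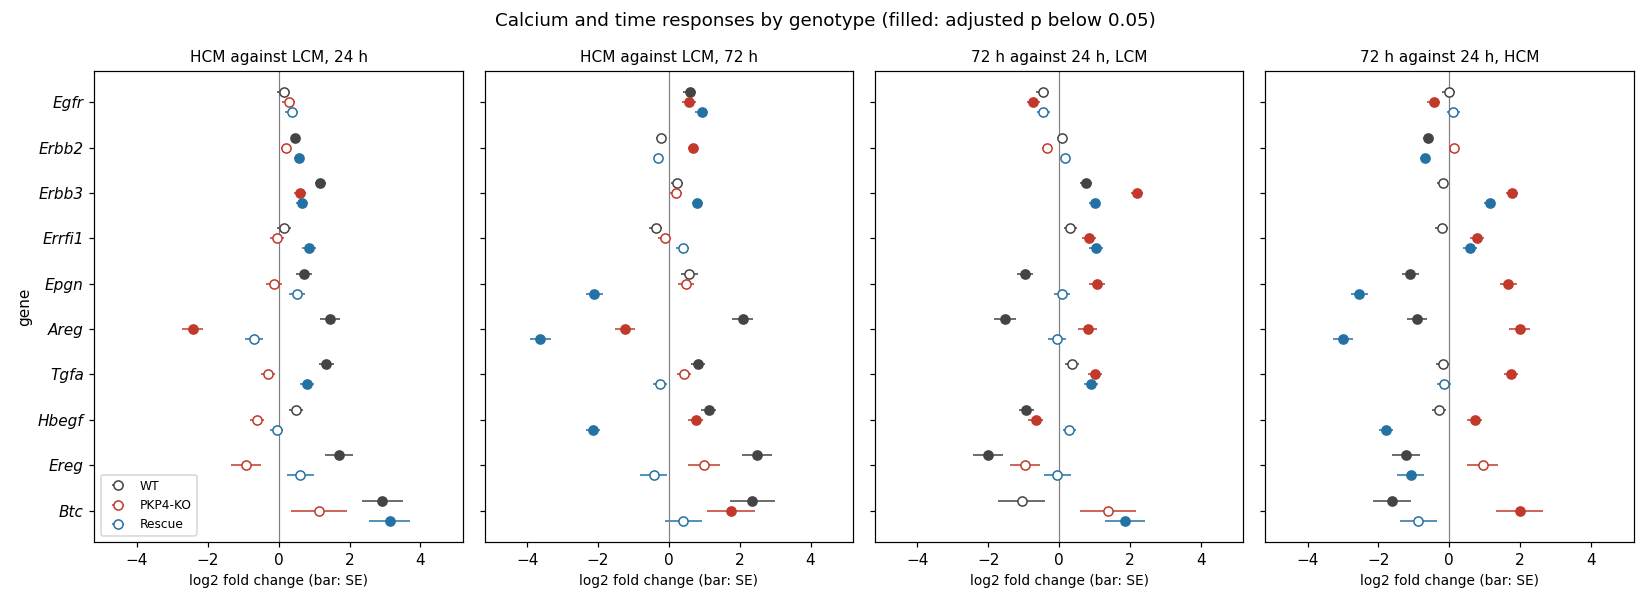
Log2 fold change (points, with bars of 1 SE) of the 10 genes for HCM against LCM at 24 h and 72 h (left pair) and for 72 h against 24 h in LCM and HCM (right pair), in WT (grey), PKP4-KO (red) and Rescue (blue), filled where the adjusted p is below 0.05. Areg lies right of 0 in WT and left of 0 in PKP4-KO in both calcium panels, and in the HCM time panel the PKP4-KO ligands lie right of 0 and no WT ligand is called upward.

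The calcium response of PKP4-KO differed from that of WT in 4 genes at 24 h and 2 at 72 h (4.02% and 5.74% of all genes). Besides Areg, these were Tgfa (-1.66 ± 0.28, adjusted p = 0.000505), Ereg (-2.61 ± 0.57, adjusted p = 0.00669) and Hbegf (-1.105 ± 0.29, adjusted p = 0.0235) at 24 h, and Erbb2 (0.90 ± 0.20, adjusted p = 0.00459) at 72 h. The Hbegf difference was not called without PKP4-KO HCM library 1, PKP4-KO LCM library 2, WT HCM library 3 or WT LCM library 1 (-0.94 to -1.04). Without TMM factors, where the medians of all genes were 0.28 at 24 h and -0.48 at 72 h, only Areg was called. The 24 h values were then -1.39 for Tgfa, -2.34 for Ereg and -0.83 for Hbegf (adjusted p = 0.0612, 0.0741 and 0.314). The Erbb2 value at 72 h was 0.51 (adjusted p = 0.327). The Rescue comparisons with WT of this kind were added after the data were seen. The Rescue response differed from WT in 1 gene at 24 h, Areg, and in 5 at 72 h (0.0662% and 14.6% of all genes). At 72 h these were all ligands with a lower response in Rescue: Areg, Hbegf (-3.26 ± 0.29, adjusted p = 6.61e-09), Epgn (-2.68 ± 0.33, adjusted p = 1.3e-06), Ereg (-2.91 ± 0.57, adjusted p = 0.000754) and Tgfa (-1.08 ± 0.28, adjusted p = 0.0084). In Rescue at 72 h, Epgn had 158, 115 and 154 CPM in LCM and 24.9, 32.2 and 42.5 in HCM (log2 fold change -2.104 ± 0.23 (SE), adjusted p = 1.21e-07), and Hbegf 72.3, 55.8 and 70.4 and 12.8, 15.1 and 17.1 (log2 fold change -2.14 ± 0.20 (SE), adjusted p = 7.79e-09). The LCM and HCM libraries were fully apart for both.

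Between 24 h and 72 h, the ligands of WT fell or were not called. In HCM 5 of 10 genes were called in WT, all lower at 72 h, and in LCM 5, of which 4 were lower (17.8% and 9.96% of all genes). In PKP4-KO 8 genes were called in HCM, 7 of them higher, and 7 in LCM, 5 of them higher (55.8% and 26.1%). Without TMM factors these splits were 3 higher (Erbb3, Areg and Tgfa) and 2 lower (Egfr and Erbb2) in HCM. In LCM they were 1 higher (Erbb3) and 3 lower (Egfr, Erbb2 and Hbegf). The medians of all genes were then -1.16 and -0.39. The suprabasal marker sum of PKP4-KO in HCM was 360 to 500.8 CPM at 24 h and 10240 to 11370 at 72 h, and its part was not tested. In Rescue 7 were called in HCM, 5 of them lower, and 4 in LCM, all higher (24.3% and 9.81%). Epgn fell in WT in HCM from 57.3, 53.1 and 52.4 to 27.3, 26.2 and 22.4 CPM (log2 fold change -1.100 ± 0.23 (SE), adjusted p = 0.00115). In PKP4-KO it rose from 72.6, 98.8 and 71.1 to 260.4, 282 and 229 (log2 fold change 1.67 ± 0.23 (SE), adjusted p = 8.7e-07), and in Rescue it fell from 209.7, 199 and 169 to 24.9, 32.2 and 42.5 (log2 fold change -2.54 ± 0.24 (SE), adjusted p = 6.13e-09). None of these groups overlapped with its partner. Without TMM factors, the PKP4-KO value of Epgn was 0.585 and was not called, beside a median of all genes of -1.16. In WT HCM, the calls of Areg, Ereg and Btc were lost without 1 of several single libraries, leaving as few as 2 genes without WT 72 h library 3, WT 24 h library 1 or WT 24 h library 3. The fall of Egfr in PKP4-KO HCM (-0.44 ± 0.19, adjusted p = 0.0497) was not called when any 1 of the 6 libraries was left out (-0.41 to -0.52).

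Erbb3 rose with time in PKP4-KO in both media, by 1.78 ± 0.17 in HCM and 2.19 ± 0.17 in LCM (adjusted p = 1.06e-09 and 9.07e-11), and without TMM factors the HCM value was 0.69 and was still called. It rose in Rescue as well (1.14 ± 0.16 and 0.9996 ± 0.17, adjusted p = 5.67e-06 and 6.55e-05), and in WT in LCM (0.76 ± 0.16, adjusted p = 0.00238) whereas in WT in HCM it was not called (-0.19 ± 0.16, adjusted p = 0.447). Errfi1 rose in PKP4-KO by 0.77 ± 0.20 in HCM and 0.84 ± 0.19 in LCM (adjusted p = 0.00158 and 0.00151), where the HCM value was -0.31 without TMM factors. The time course of PKP4-KO differed from WT in 9 genes in HCM, all except Egfr, and in 3 in LCM, Erbb3, Areg and Epgn (26.6% and 5.25% of all genes). All of these differences were positive. Without TMM factors, where the median of all genes in HCM was -0.90, 5 were called higher in HCM (Erbb3, Areg, Epgn, Tgfa and Btc). Egfr was called lower (-1.26, adjusted p = 0.00899), and Ereg (1.30), Hbegf (0.16), Errfi1 (0.11) and Erbb2 (-0.11) were not called. With TMM factors, the difference was 3.61 for Btc, which rests on few counts, and the next were Areg (2.895 ± 0.40, adjusted p = 3.27e-06) and Epgn (2.77 ± 0.33, adjusted p = 2.06e-07) in HCM. The Rescue time course differed from WT in 4 genes in HCM and 3 in LCM (10.5% and 3.91%). In HCM, Areg (-2.09 ± 0.39), Epgn (-1.44 ± 0.32) and Hbegf (-1.49 ± 0.28) fell more in Rescue and Erbb3 (1.33 ± 0.23) rose more. In LCM, the differences were positive for Areg (1.47 ± 0.40), Ereg (1.96 ± 0.57) and Hbegf (1.21 ± 0.28), of which Areg and Ereg were not called in most fits without 1 library.

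Of 50 other genes of the pathway, 47 were tested. Erbb4, Nrg3 and Nrg4 were not, with at most 0.361 CPM (Nrg4) in any library. Against WT, PKP4-KO changed 10 upward and 16 downward in HCM at 24 h, 6 and 24 in HCM at 72 h, 11 and 8 in LCM at 24 h and 14 and 10 in LCM at 72 h. In all, these are 55.3%, 63.8%, 40.4% and 51.1% of the 47, beside 42.8%, 51.8%, 40.2% and 45.1% of all genes. For Rescue against WT the counts were 10 and 2, 11 and 4, 18 and 1, and 20 and 2 in the same order. These are 25.5%, 31.9%, 40.4% and 46.8% of the 47, beside 23.2%, 36.2%, 24.8% and 32.4% of all genes. For Rescue in HCM the shares lay near those of all genes, as did the share of PKP4-KO at 24 h LCM. By group, 10 ERK-responsive genes (Fos, Jun and Etv factors among them) had 6 higher and 0 lower in PKP4-KO at 24 h LCM and 8 higher and 0 lower at 72 h LCM, with median log2 fold changes of 0.91 and 1.63. In HCM they were 3 higher and 3 lower at 24 h and 4 higher and 3 lower at 72 h. Of all genes, 19.7% were higher and 20.6% lower in PKP4-KO at 24 h LCM, and 21.3% and 23.8% at 72 h LCM. In HCM these shares were 20.7% and 22.2% at 24 h, and 21.9% and 29.9% at 72 h. In Rescue, 9 were higher and 0 lower in LCM at each time, 5 and 0 at 24 h HCM, and 0 and 2 at 72 h HCM. Of all genes, 24.8% and 32.4% were called in Rescue in LCM at 24 h and 72 h, and 54.2% and 55.1% of these calls were higher. The shares called in HCM were 23.2% and 36.2%, with 51% and 53.9% of the calls higher.

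**Figure D5:**
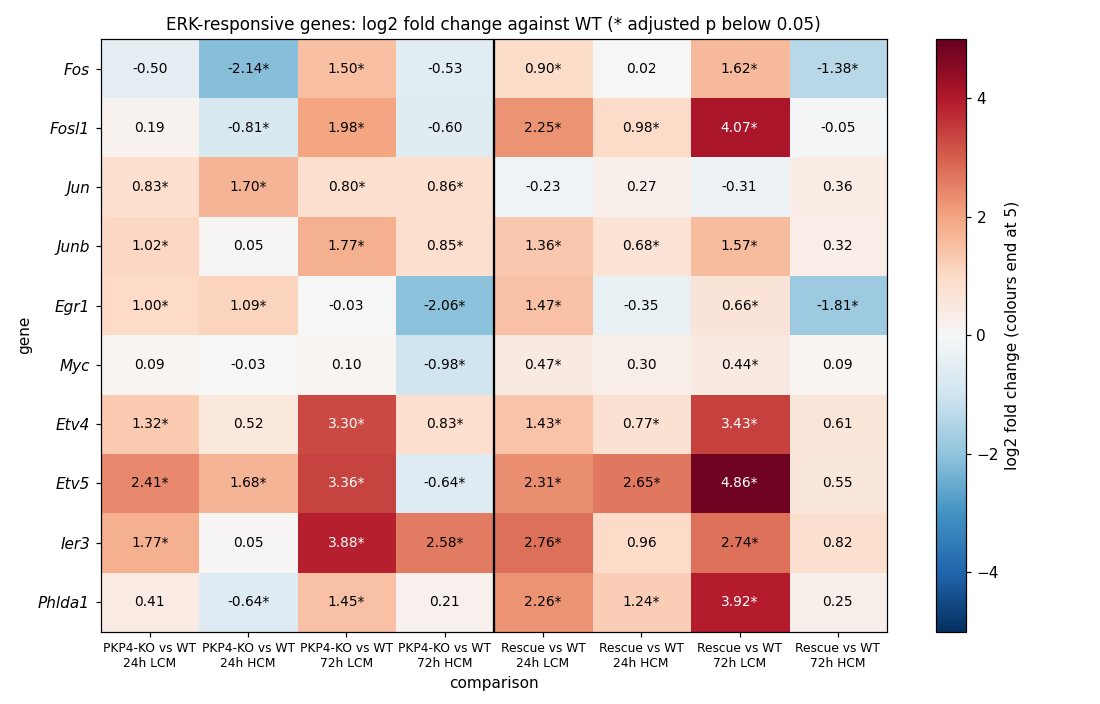
Log2 fold change of PKP4-KO (left) and Rescue (right) against WT for 10 ERK-responsive genes in the 4 culture conditions, with an asterisk at an adjusted p below 0.05. The columns of 72 h LCM hold 8 asterisks with positive values in PKP4-KO and 9 in Rescue, and those of 72 h HCM hold asterisks of both signs in PKP4-KO and 2 with negative values in Rescue.

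The largest single difference of these 50 genes from WT in PKP4-KO at 24 h HCM, 72 h HCM and 24 h LCM was that of Timp3, an inhibitor of the metalloproteases that release the ligands. Timp3 had 1.65 to 2.63 CPM in WT and 249 to 352 in PKP4-KO at 24 h HCM (log2 fold change 7.101 ± 0.44, adjusted p = 1.81e-13), and 0.642 to 1.82 and 149.7 to 312 at 24 h LCM (7.34 ± 0.45, adjusted p = 2.03e-13). At 72 h it had 76.5 to 83.4 in PKP4-KO in HCM and 21.5 to 40.4 in LCM, against at most 1.23 in WT. In Rescue it had 3.29 to 6.66 at 24 h HCM and 0.957 to 1.65 at 72 h LCM, and it was higher than WT at 72 h HCM (1.93 ± 0.49, adjusted p = 0.00316). Adam10, a sheddase of Btc, and Adam17, the main sheddase of Tgfa, Areg and Hbegf, were both lower in PKP4-KO in HCM at both times and at 72 h LCM, and Adam10 also at 24 h LCM. For Adam17, the log2 fold change at 24 h HCM was -0.64 ± 0.23, adjusted p = 0.0253. Both were named after their values were seen. Adam10 had 43.7 to 62.6 CPM in WT and 18.6 to 29.1 in PKP4-KO at 24 h HCM (-1.199 ± 0.23, adjusted p = 8.57e-05).

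Feedback inhibitors other than Errfi1 split. The phosphatase Dusp6, an ERK target, was higher in PKP4-KO at 72 h LCM (log2 fold change 4.38 ± 0.24, adjusted p = 1.43e-14), with 2.46 to 2.81 CPM in WT and 49.1 to 59.2 in PKP4-KO. Dusp5 was lower in PKP4-KO at 24 h HCM, 14.1 to 16.3 against 2.38 to 3.10 (-2.41 ± 0.27, adjusted p = 2.91e-08), and Dusp4 at 72 h HCM (-2.69 ± 0.47, adjusted p = 2.53e-05). In Rescue at 72 h HCM, Dusp4 was higher than WT, 26.3 to 38.7 against 2.05 to 4.05 (3.46 ± 0.36, adjusted p = 3.05e-08). Spry4 had no count in the WT libraries of 72 h LCM and 0.610 to 0.755 CPM in PKP4-KO and 0.810 to 0.945 in Rescue. Among the ERK-responsive genes, Etv5 was raised in PKP4-KO at 24 h LCM (2.41 ± 0.24, adjusted p = 5e-09) and in Rescue at 72 h LCM (4.86 ± 0.28, adjusted p = 1.52e-13), where it had 0.357 to 0.909 CPM in WT and 13.5 to 20.7 in Rescue. Rescue also had higher Fosl1, an AP-1 subunit, at 72 h LCM (4.07 ± 0.31, adjusted p = 3.1e-11), and higher Ier3 (2.76 ± 0.43, adjusted p = 1.76e-05) and Phlda1 (2.26 ± 0.24, adjusted p = 4.93e-08) at 24 h LCM. Over all 15 feedback inhibitors, 4 were higher and 5 lower in PKP4-KO in HCM at 24 h, 1 and 7 in HCM at 72 h, 3 and 3 in LCM at 24 h, and 4 and 2 in LCM at 72 h. Of 14 genes of the Ras-ERK cascade, 2 were higher and 3 lower in HCM at 24 h, 0 and 9 in HCM at 72 h, 1 and 4 in LCM at 24 h and 1 and 4 in LCM at 72 h. In the same order, 20.7%, 21.9%, 19.7% and 21.3% of all genes were higher. Lower were 22.2%, 29.9%, 20.6% and 23.8% of all genes.

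Over the 36 libraries, the genes whose log2(CPM + 1) followed a member most closely were, for Egfr, Vcl (r = 0.87), Stt3b (0.85) and Eda2r (0.85). For Areg they were Csf3 (0.94), Il24 (0.91) and Arid5a (0.86). For each, they were the top 3 of 10898 protein-coding genes whose mean CPM was 1 or more. The points share 12 groups and the same scaling factors, and the values are descriptive.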

How the data were processed

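The authors made the deposited counts from poly(A)-selected, strand-specific read pairs aligned with HISAT2 2.1.0 to mm39 with the EGFP-PKP4 sequence added. They removed secondary alignments with SAMtools 1.10 and counted read pairs per Ensembl gene with featureCounts 2.0.0; the strand setting of the counting is not given in the sources used here. The members and gene lists were chosen with earlier results of these data known. From the deposited counts, all 36 libraries were fitted in 1 model with a mean per group (edgeR 4.0.16 in R 4.3.3, filterByExpr, TMM factors, quasi-likelihood test), and p-values were adjusted after Benjamini-Hochberg over 15114 genes with a threshold of 0.05. CPM values use TMM-scaled library sizes, and TPM values use the lengths in the table. All members are named, and of the pathway lists up to 3 genes with the largest change per comparison. The genes most like a member are given for Egfr and Areg, and those for Errfi1 are not reported here. Alternatives were DESeq2 1.42.0, other scaling and filters, a replicate block, fewer libraries and leaving out each library. With every pair of same-numbered libraries correlated over 0.1 in only 2 of 24 comparisons, the replicate numbers were not treated as pairs. Those 2 were HCM against LCM in WT at 24 h and Rescue against PKP4-KO at 72 h LCM. The replicate block changed no call in them. It fits an effect of the replicate number shared by all groups, so it cannot show what pairing within these 2 comparisons would do.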

Additional observations from a re-analysis of the deposited data

Results flagged for a closer look

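The following differences between genotypes in the response to calcium or time passed the test of the difference itself in edgeR (adjusted p below 0.05). They are given as log2 differences. The comparisons of Rescue with WT were added after the data were seen.

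For calcium in PKP4-KO against WT at 24 h, the response was lower for Areg (-3.89), Ereg (-2.61), Tgfa (-1.66) and Hbegf (-1.10). At 72 h it was higher for Erbb2 (0.90) and lower for Areg (-3.32). Without TMM factors, only Areg of these was called at either time. For calcium in Rescue against WT, Areg was lower at 24 h (-2.15), and at 72 h Areg (-5.71), Hbegf (-3.26), Ereg (-2.91), Epgn (-2.68) and Tgfa (-1.08) were lower.

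For time in PKP4-KO against WT in HCM, the change from 24 h to 72 h was more positive for Btc (3.61), Areg (2.90), Epgn (2.77), Ereg (2.17), Erbb3 (1.97), Tgfa (1.91), Hbegf (1.002), Errfi1 (0.98) and Erbb2 (0.72). In LCM it was more positive for Areg (2.33), Epgn (2.02) and Erbb3 (1.43). For time in Rescue against WT in HCM, it was more positive for Erbb3 (1.33) and more negative for Areg (-2.09), Hbegf (-1.49) and Epgn (-1.44). In LCM it was more positive for Ereg (1.96), Areg (1.47) and Hbegf (1.21).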

How the results depend on the processing

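Of 320 single values, 308 kept direction and side of the threshold with DESeq2, 318 with upper-quartile factors, 299 without a filter, 311 with the replicate block, 300 without the 6 libraries (chosen after the data were seen) and 260 without TMM factors. With at least 10 counts in every library 248 of 256 did, with only the groups compared 282 of 308, the other values being absent because the gene was filtered out, and with 1 library left out 2216 of 2400. The direction turned without TMM factors only, for PKP4-KO against WT at 72 h HCM in Erbb2 (-0.66), Erbb3 (-0.36) and Errfi1 (-0.81), for calcium in PKP4-KO at 72 h in Egfr (-0.12) and Erbb2 (-0.016), for time in PKP4-KO HCM in Erbb2 (-0.94), Hbegf (-0.37) and Errfi1 (-0.31), and for its difference from WT in Erbb2 (-0.11).

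The number of the 10 genes called moved by over 1.5 times as follows. Without TMM factors it was 4 for Rescue against WT at 72 h HCM, 1 and 2 for calcium in PKP4-KO at 24 h and 72 h, 1 for calcium in Rescue at 24 h, 5 and 4 for time in PKP4-KO in HCM and LCM, 2 for time in Rescue LCM, 1 and 1 for the calcium difference of PKP4-KO from WT at 24 h and 72 h, 0 for that of Rescue at 24 h and 1 for the time difference of Rescue in LCM. Without a filter it was 1 for Rescue against WT at 72 h HCM and 1 and 3 for calcium in PKP4-KO. With at least 10 counts it was 3 for time in WT HCM. With only the groups compared it was 1 for Rescue against WT at 72 h HCM, 1 and 3 for calcium in PKP4-KO, 2 for time in WT HCM, 0 for the calcium difference of Rescue at 24 h and 1 for its time difference in LCM. DESeq2 gave 8 for calcium in PKP4-KO at 72 h and 5 for the time difference of Rescue in LCM. Without the 6 libraries it was 1 for Rescue against WT at 72 h HCM, 5 at 24 h LCM, 1 for calcium in PKP4-KO at 24 h and 3 for time in WT HCM. The replicate block gave 1 for calcium in PKP4-KO at 24 h, where Erbb3 was no longer called (0.60, adjusted p = 0.0541), and pairs of same-numbered libraries correlated from -0.649 to 0.718, with 21 of 72 over 0.1. The cause of these changes was not tested.

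With 1 library left out, the counts ranged from 4 to 6 for PKP4-KO against WT at 72 h LCM (4 without PKP4-KO 1 or 3 or WT 2 or 3), 1 to 2 for Rescue against WT at 72 h HCM (1 without Rescue 2 or WT 3), 5 to 8 for Rescue against PKP4-KO at 24 h LCM (5 without PKP4-KO 1), 1 to 2 for calcium in PKP4-KO at 24 h and 3 to 5 at 72 h (3 without any HCM library or LCM 1), 2 to 5 for time in WT HCM, 4 to 9 for time in PKP4-KO LCM (4 without 24 h library 3), 0 to 1 and 5 to 8 for the calcium difference of Rescue at 24 h and 72 h (8 without Rescue HCM 3) and 1 to 4 for its time difference in LCM (1 without Rescue 72 h 1 or 3, Rescue 24 h 1 or 3, WT 72 h 1 or 2 or WT 24 h 3). Depth limits Btc most, with 1 count in its lowest library.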
